A study of Homo sapiens and Mus musculus with 47 samples.

Results

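Lysosome and autophagy genes were followed through the RNA-seq and Chrom-seq libraries of this study as a list of 40 genes chosen by name. The list held 7 proteins of the lysosomal membrane, 6 lysosomal peptidases, 11 glycosidases, other hydrolases and cofactors, 11 subunits of the V-ATPase proton pump and 5 autophagy genes. All 40 were found once among the 57820 genes of each human table, and 39 were found among the 55401 genes of each mouse table, which had no gene named Atp6v0e1. The question was whether these genes moved together with RRAGD, a GTPase of the lysosomal surface, between cells given a control antisense oligonucleotide (ASO) and the other cells whose RNA was sequenced. RRAGD itself was not a member of the list and was used as the gene to read against.

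RNA-seq was made from HEK293T cells, a human embryonic kidney line. Cells received an ASO against the long noncoding RNA SETD5-AS1 (3 libraries), LINC00641 (2 libraries) or LINC00662 (3 libraries), or a negative control ASO (3 libraries). Another 6 HEK293T RNA-seq libraries came in a separate table, 3 from cells expressing the CBX7 reader, a chromodomain that binds H3K27me3, and 3 from a control, which the study's methods describe as untreated cells and which is called the RNA-seq control here. Chrom-seq libraries held RNA that had been biotinylated near a chromatin mark in living cells and pulled down. A reader domain carried an array of peptide tags that recruited a peroxidase, and the constructs were expressed for 48 h before 30 min of 500 µM biotin-aniline and 1 min of 1 mM H2O2. The sample records list the same times and doses for all RNA-seq libraries, with and without an ASO. For the RNA-seq control this is at odds with the methods, which describe untreated cells, and the conflict was not resolved. The TAF3 reader, a PHD finger that binds H3K4me3, was compared with the tag array lacking a reader, with 3 libraries each, in HCT116 (human colorectal cancer), NIH3T3 (mouse embryonic fibroblast) and Neuro-2a (mouse neuroblastoma) cells. In all, 35 of 47 libraries were used, and 12 Chrom-seq libraries of HEK293T cells were not analysed here. The labels give no information on whether replicates were separate cultures, so p-values measure only the spread between these libraries.

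Lysosomes break down material delivered by endocytosis and autophagy. Their lumen is acidified by the V-ATPase, and the low pH activates the cathepsins, glycosidases and other hydrolases, while autophagy proteins of the LC3 and GABARAP families build the vesicle that carries cytoplasm to the lysosome. On the lysosomal surface, RagA or RagB pairs with RagC or RagD, the products of RRAGC and RRAGD, and the pair recruits the kinase mTORC1 when amino acids are present. RagC and RagD also present TFEB, TFE3 and MITF for phosphorylation, which keeps these transcription factors out of the nucleus, and the folliculin complex with FNIP1 or FNIP2 acts on RagC and RagD. TFEB and its relatives bind a short palindrome with the core CACGTG in the promoters of many lysosomal genes, and RRAGD is itself a known target.

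The depth was 8258859 to 15330874 counts in the 17 RNA-seq libraries and 10012172 to 17558305 counts in the 18 Chrom-seq libraries. Each targeted RNA was low with its own ASO. SETD5-AS1 had 4.30 ± 0.388 CPM (read counts scaled by library total and normalization factor) with its ASO and 53.2 ± 0.466 CPM with the control ASO, LINC00641 had 1.42 ± 0.717 CPM (n = 2) against 41.0 ± 2.29 CPM, and LINC00662 had 1.59 ± 0.381 CPM against 13.4 ± 0.943 CPM (SD, n = 3 where not given). The control ASO libraries differed from the others in measures of the whole library. Their normalization factors were 0.9336 to 0.9563, against 0.9827 to 1.055 in the other HEK293T libraries, and their share of mitochondrial counts was 3.046% to 3.482%, against 2.177% to 2.926% with the targeting ASOs and 2.574% to 3.105% in the 6 libraries without an ASO. Whether these played a part in the members' differences was not tested. One Chrom-seq library, Neuro-2a TAF3 replicate 1, differed from its 2 replicates by a chi-square per gene of 32.8 and 37.4, where all other replicate pairs of the study lay between 2.41 and 13.3. The marker lists fitted the labelled lines in part. In the reader-free Chrom-seq control of HCT116, which holds pulled-down RNA, the epithelial genes EPCAM and KRT8 were at 349 and 1730 CPM. The intestinal genes CDH17 and VIL1 were near 0 there. CDX2, another intestinal gene of the list, was at 12.5 CPM there and at 29.4 to 59.9 CPM in the HEK293T RNA-seq groups, in tables that were scaled separately. The 7 HEK293T markers summed to a mean of 19.7 CPM in this HCT116 control, although PAX2, at 11.5 CPM, was above the 5.27 to 9.96 CPM of the HEK293T groups. The summed level of the 7 epithelial markers was 635 to 703 CPM in the control ASO libraries and 284 to 494 CPM in the other HEK293T libraries, with KRT8 at a mean of 446 CPM against 163 to 300 CPM in the other groups and CDX2 at 59.9 against 29.4 to 34.5 CPM. The 7 HEK293T markers were all above 0 in each HEK293T group and summed to 1350 to 1420 CPM with the control ASO and 1180 to 1750 CPM in the other libraries, although CDH2 was at 95.1 CPM against 133 to 168 CPM. Of the 5 leukocyte markers 3 were at 0 with the control ASO, PTPRC had a mean of 0.129 CPM and CD14 one of 1.46 CPM, where CD14 was at 0.115 to 0.723 CPM in the other HEK293T groups. In all lines the group means of PTPRC were at most 1.25 CPM. The part of these markers in the members' differences was not tested.

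The agents that separate the RNA-seq groups are 20-base ASOs, and the designs listed for the study are shown because the large contrasts of RRAGD below run through the control ASO. Which design each library received is not given in the sources used here. Only the first design against each RNA is printed, with the negative control.
SETD5-AS1-ASO-1: atcaatgaggatgtcatcac
LINC00641-ASO-1: gatgtggagcaacagaaatg
LINC00662-ASO-1: tgtagtctcttatctgcacc
ASOXNC23, negative control: ttctccgaacgtgtcacgtt

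Promoter windows, from 250 bases before to 50 bases after the gene start, were available in RefSeq (GRCh38.p14) for 28 of the 40 members. The core CACGTG, which reads the same on both strands, occurred in 11 of these 28 windows (39.3%), against 7.43% of all 27305 windows. The longer palindrome TCACGTGA, which contains the core, occurred in 5 of 28 (17.9%), against 1.04% of all windows. The 11 genes were ATP6V0B, ATP6V0D1, CD63, CLCN7, CTSA, CTSD, CTSF, GAA, LAMP1, MCOLN1 and NEU1, and the 5 with the longer form were ATP6V0D1, CTSA, GAA, LAMP1 and MCOLN1. A match is a string of letters and not a measured binding site. The windows of 4 genes are shown because the results turn on them: CTSA, ATP6V0B and CD63 were higher with the control ASO than with every targeting ASO, and GAA was lower. Capitals mark the core or, where present, the longer palindrome. Positions are counted from the gene start, and the strand follows the interval.
CTSA, chr20:45891085-45891384, plus strand: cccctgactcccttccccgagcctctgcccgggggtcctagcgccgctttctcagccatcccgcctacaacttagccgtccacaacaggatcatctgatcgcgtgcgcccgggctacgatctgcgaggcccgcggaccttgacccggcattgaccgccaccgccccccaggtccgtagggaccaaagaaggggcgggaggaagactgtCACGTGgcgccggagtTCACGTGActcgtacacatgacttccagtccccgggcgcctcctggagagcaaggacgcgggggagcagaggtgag
ATP6V0B, chr1:43974710-43975009, plus strand: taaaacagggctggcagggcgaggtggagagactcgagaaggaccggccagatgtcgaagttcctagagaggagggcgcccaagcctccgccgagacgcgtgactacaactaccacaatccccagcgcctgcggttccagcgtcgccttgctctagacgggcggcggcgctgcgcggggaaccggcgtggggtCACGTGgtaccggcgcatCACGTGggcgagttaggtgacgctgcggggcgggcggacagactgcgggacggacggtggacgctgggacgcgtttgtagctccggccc
CD63, chr12:55728960-55729259, minus strand: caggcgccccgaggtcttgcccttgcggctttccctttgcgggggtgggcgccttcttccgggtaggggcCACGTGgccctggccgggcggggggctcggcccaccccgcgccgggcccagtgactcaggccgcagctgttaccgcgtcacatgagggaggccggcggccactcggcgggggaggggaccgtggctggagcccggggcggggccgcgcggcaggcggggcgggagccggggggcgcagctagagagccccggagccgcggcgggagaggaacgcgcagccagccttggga
GAA, chr17:80101331-80101630, plus strand: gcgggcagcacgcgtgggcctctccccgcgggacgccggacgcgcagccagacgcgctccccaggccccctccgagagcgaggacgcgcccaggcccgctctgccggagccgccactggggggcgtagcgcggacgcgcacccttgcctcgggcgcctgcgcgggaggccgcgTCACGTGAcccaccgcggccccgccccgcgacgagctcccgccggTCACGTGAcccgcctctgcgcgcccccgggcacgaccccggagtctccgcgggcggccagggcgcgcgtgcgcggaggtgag
CTSA held the core at positions -42 and -25, ATP6V0B at -57 and -39, CD63 at -180, and GAA held the longer palindrome at -77 and -32. These 4 genes were chosen for their directions, so their split says nothing of the 11 as a set, which is counted below.

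A few members could not be measured in these tables. HEXA, the alpha subunit of beta-hexosaminidase, had 10 counts over the 17 HEK293T RNA-seq libraries, and NAGLU, which degrades heparan sulfate, had 27. In the annotation of the tables (hg19), 98.5% of the span of HEXA and 95.9% of that of NAGLU lay under other genes of the same strand. Among protein-coding genes wholly covered by same-strand genes, 97.1% of 481 had no counts, compared with 25.9% of 1010 that were wholly covered on the other strand and 15.9% of 7615 with no overlap. A count near 0 for these genes is therefore no sign of a low RNA level. Map1lc3b was wholly covered on its strand in the mouse annotation and had 0 counts in every mouse library. CTSD was covered over 62.6% of its span, and its values are uncertain in the same way. The filter on low counts left 38 members in the HEK293T RNA-seq comparisons (39 for SETD5-AS1 ASO against LINC00662 ASO, where NAGLU passed), 37 in HCT116, 37 in NIH3T3 and 38 in Neuro-2a.

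RRAGD was lower with the control ASO than in every other HEK293T RNA-seq library. The gene (ENSG00000025039.10) lies on the minus strand of hg19 chromosome 6, from 90074355 to 90121989. Its level was 6.877, 5.73 and 6.023 CPM in the 3 control ASO libraries. It was 35.42, 37.18 and 35.26 CPM with the SETD5-AS1 ASO, 39.69 and 38.75 CPM for LINC00641, and 42.69, 41.62 and 43.77 CPM for LINC00662. The 6 libraries without an ASO were also high, at 46.91, 46.19 and 41.43 CPM in the RNA-seq control and 37.51, 40.28 and 35.37 CPM with CBX7. The groups did not overlap, and the control ASO libraries were the low ones. In bulk RNA, fewer cells with a transcript and less of it per cell cannot be told apart. On the log2 scale RRAGD was higher than with the control ASO by 2.54 (SE 0.12) for SETD5-AS1, 2.67 (SE 0.13) for LINC00641 and 2.83 (SE 0.11) for LINC00662, and the control ASO against the RNA-seq control gave -2.84 (SE 0.12). The edgeR adjusted p-values were 2.481e-11, 5.6e-12, 1.481e-16 and 2.892e-11. All of them rest on the same control ASO libraries, and RRAGD was among the genes chosen with earlier results of these data known. RRAGC, the close relative of RRAGD, went the other way, with 65.44, 77.00 and 76.86 CPM with the control ASO and 29.53 to 53.99 CPM in the other 14 libraries. FNIP2 had 24.90 to 29.52 CPM with the control ASO and 39.88 to 57.98 CPM elsewhere. MITF, at 6.337 to 7.881 CPM with the control ASO and 9.496 to 17.83 CPM elsewhere, did not overlap either. Such a separation was common, since the control ASO libraries lay all below the other 14 in 13% of all genes tested and all above in 16%. FLCN, which encodes folliculin, lay wholly under genes of its own strand and had 2 counts in all, so it was not tested. TFE3 passed the test in none of the 3 ASO comparisons, and TFEB, which had few counts, passed with the LINC00662 ASO alone, with a log2 fold change of 0.72 (SE 0.20, adjusted p = 0.003726).

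**Figure D1:**
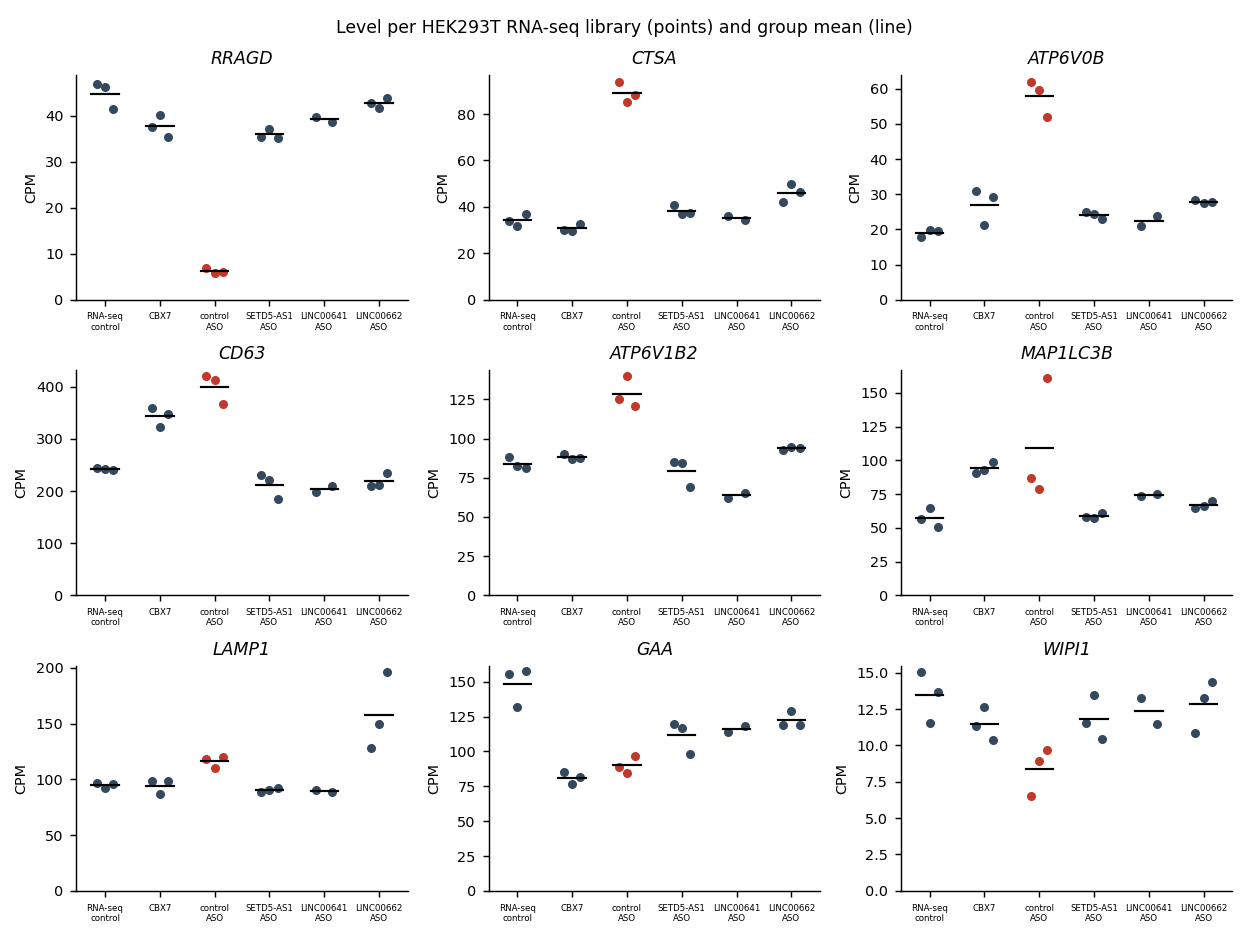
Levels of RRAGD and 8 members in the 17 HEK293T RNA-seq libraries. Each point is 1 library in CPM, each line is a group mean, and the control ASO is in red. RRAGD lies at 5.73 to 6.877 CPM with the control ASO and above 35 CPM elsewhere, CTSA and ATP6V0B are highest with the control ASO, and 1 control ASO library of MAP1LC3B lies at 161.5 CPM.

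The members did not move as a block with RRAGD. A gene was called when its adjusted p was under 0.05 and its log2 fold change was at least 0.75 in size. With the SETD5-AS1 ASO, 5 of 38 members were called lower than with the control ASO (13.2%), where 11.5% of all genes tested were. No member was called higher, where 12.9% of all genes were. With the LINC00641 ASO, 6 of 38 were lower (15.8%), against 11.5% of all genes, and none was higher, against 11% of all genes. With the LINC00662 ASO, 3 of 38 were lower (7.89%), against 13.3%, and none was higher, against 11.6%. DESeq2 also called 0 members higher in each, while 6, 7 and 11 members were higher at an unadjusted edgeR p under 0.05. The shares of members called lower rested on 3 to 6 genes each and lay on either side of those of all genes. No difference between the ASOs is read from them. Without LINC00662 ASO replicate 1 or control ASO replicate 3, 1 member was called higher with the LINC00662 ASO.

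Differences below that fold were mostly on the lower side. The 38 members tested had a median level of 60.2 CPM over the HEK293T RNA-seq libraries, where that of all genes tested was 14.7 CPM. Smaller differences can pass the adjusted p at higher levels. The shares of all genes given here and below were not matched for level, and the part of level was not tested. At an adjusted p under 0.05 whatever the fold, 20 of 38 members were lower with the SETD5-AS1 ASO (52.6%, against 25.8% of all genes) and 5 were higher (13.2%, against 26.9%). The LINC00641 ASO gave 19 lower (50%, against 24.4%) and 7 higher (18.4%, against 25.2%), and the LINC00662 ASO gave 16 lower (42.1%, against 26.8%) and 10 higher (26.3%, against 27.6%). The median log2 fold change of the members was -0.25, -0.23 and -0.10, where that of all genes was 0.03, 0.00 and 0.00. RRAGD and the median member thus lay on opposite sides of 0. Scaling by library size alone raised the median of all genes to 0.17 for SETD5-AS1, with that of the members at -0.11, and gave 15 lower and 9 higher members. Leaving out 1 library at a time gave 18 to 20, 15 to 19 and 14 to 16 lower members and 3 to 6, 4 to 5 and 9 to 11 higher ones, the 3 being without SETD5-AS1 ASO replicate 2 and the lowest 4 without control ASO replicate 1. The 3 comparisons share the same control ASO libraries and are not independent of each other.

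**Figure D2:**
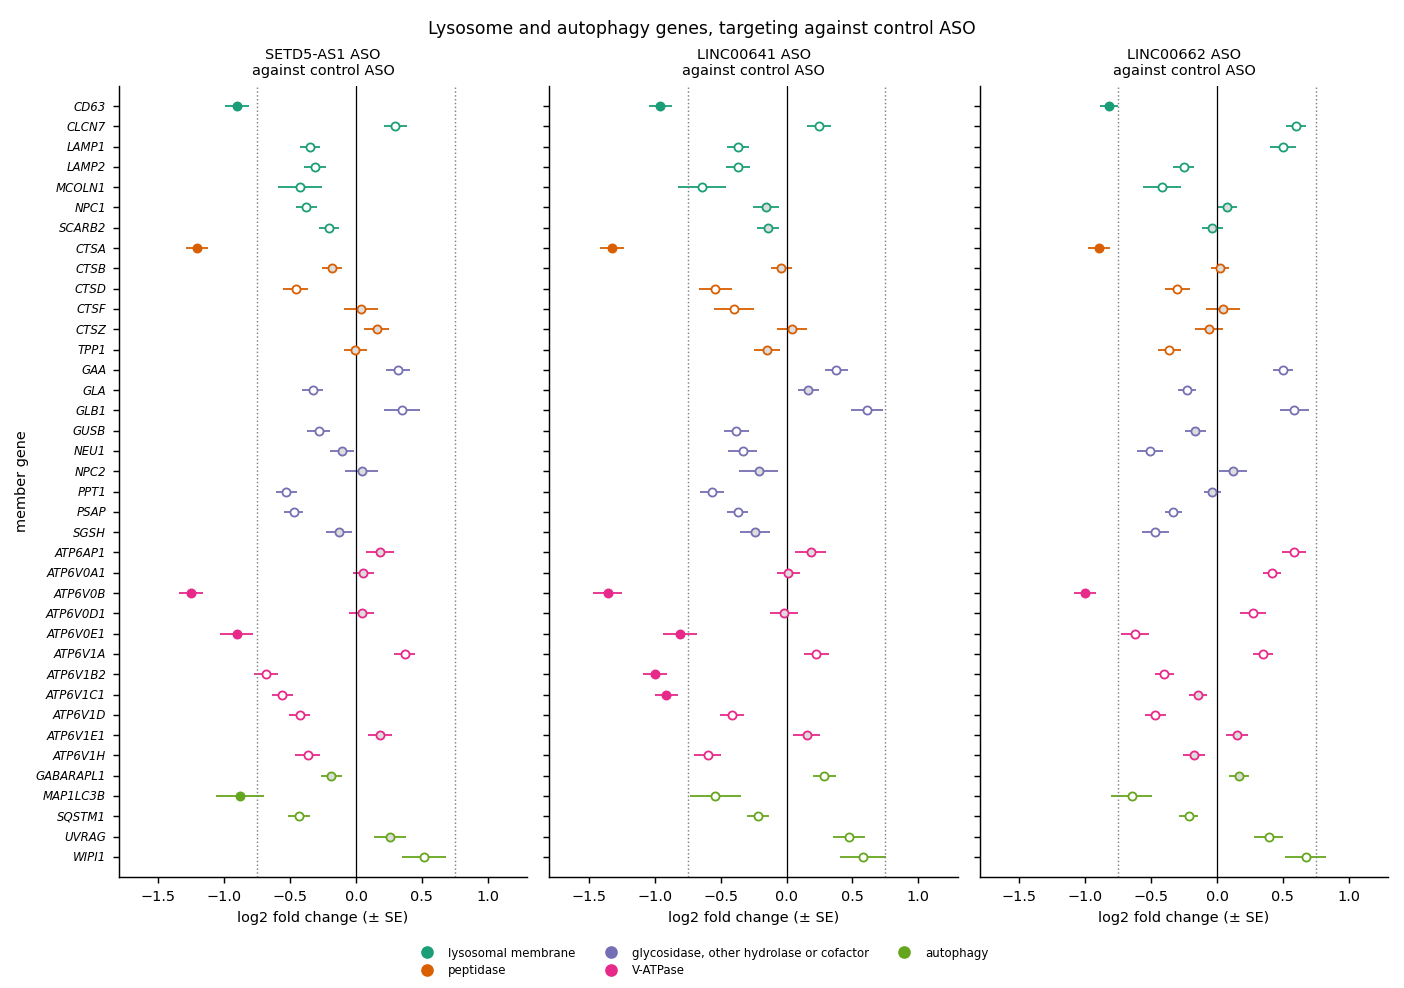
Log2 fold changes of 38 members between each targeting ASO and the control ASO, with bars of 1 SE and dotted lines at 0.75 on each side of 0. Colours give the role of the gene, filled points passed the adjusted p and the fold, white points the adjusted p alone, and grey points neither. ATP6V0B, CTSA and CD63 are filled on the lower side in all 3 panels, and no point is filled on the higher side.

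The V-ATPase members, 11 of the 38 tested, held 2 of the 5, 4 of the 6 and 1 of the 3 called differences. Of 11 subunits, 6 were lower at an adjusted p under 0.05 with the SETD5-AS1 ASO, 6 for LINC00641 and 4 for LINC00662, and 1, 1 and 4 were higher. Of all genes tested, 25.8%, 24.4% and 26.8% were lower and 26.9%, 25.2% and 27.6% higher. ATP6V0B (ENSG00000117410.9, hg19 chromosome 1, 44440159 to 44443967), a subunit of the membrane ring of the pump, had 61.81, 59.73 and 52.05 CPM with the control ASO. It had 24.85, 24.36 and 22.98 CPM with the SETD5-AS1 ASO, 20.99 and 23.74 CPM for LINC00641 and 28.46, 27.41 and 27.71 CPM for LINC00662. All control ASO libraries were above all others, and the targeting ASOs had 41.9%, 39.0% and 49.9% of the control ASO level (log2 fold changes of -1.26, -1.36 and -1.002, SE 0.09, 0.11 and 0.09, adjusted p = 4.345e-09, 3.26e-09 and 2.284e-10). ATP6V0E1, another subunit of the membrane sector, had 36.70, 43.23 and 30.48 CPM with the control ASO, 20.31, 21.85 and 16.29 CPM with the SETD5-AS1 ASO, 20.23 and 21.38 CPM for LINC00641 and 22.87, 23.49 and 22.92 CPM for LINC00662, with log2 fold changes of -0.91, -0.81 and -0.62. The LINC00641 value became -0.69 without control ASO replicate 2 and was then no longer called.

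ATP6V1B2 and ATP6V1C1 were called by fold with the LINC00641 ASO alone, and whether the ASOs differed is taken up with the ASO pairs. ATP6V1B2, which belongs to the ATP-hydrolysing head, had 125.2, 139.8 and 120.5 CPM with the control ASO, 62.13 and 65.49 CPM with the LINC00641 ASO and 68.95 to 94.31 CPM with the other targeting ASOs. Its log2 fold change was -0.996 (SE 0.09) for LINC00641, -0.68 for SETD5-AS1 and -0.40 for LINC00662. ATP6V1C1, a subunit of the stalk, was at 94.03, 96.36 and 92.60 CPM with the control ASO, 49.46 and 49.90 CPM with the LINC00641 ASO, 58.05, 64.72 and 67.93 CPM with the SETD5-AS1 ASO and 86.17, 80.98 and 79.59 CPM with the LINC00662 ASO. The corresponding log2 fold changes were -0.91, -0.56 and -0.14, and the last did not pass the test (adjusted p = 0.08824). ATP6V1A, the catalytic subunit that forms the head together with ATP6V1B2, was instead slightly higher with each targeting ASO, by 0.37, 0.23 and 0.35 on the log2 scale. ATP6V1H, a regulatory subunit of the head, was at 47.67, 43.23 and 40.90 CPM with the control ASO, with log2 fold changes of -0.37 for SETD5-AS1, -0.60 for LINC00641 and -0.17 for LINC00662, and the last did not pass the test (adjusted p = 0.08675). ATP6V0D1, ATP6V0A1 and the accessory subunit ATP6AP1 were higher with the LINC00662 ASO alone, by 0.27, 0.42 and 0.59.

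Of the 6 peptidases, CTSA gave the largest difference. CTSA (ENSG00000064601.12, hg19 chromosome 20, 44518783 to 44527459), also called protective protein, is a carboxypeptidase that holds beta-galactosidase and NEU1 in a complex. Its level was 93.80, 85.34 and 88.19 CPM with the control ASO, 41.04, 36.88 and 37.31 CPM with the SETD5-AS1 ASO, 36.18 and 34.32 CPM for LINC00641 and 42.02, 50.07 and 46.50 CPM for LINC00662. The control ASO libraries again lay above all others, and the targeting ASOs had 43.4%, 39.9% and 53.8% of the control ASO level, with log2 fold changes of -1.20, -1.33 and -0.90 (SE 0.08, 0.09 and 0.08, adjusted p = 2.441e-09, 5.918e-10 and 4.692e-10). CTSD, the aspartic cathepsin, was lower by less than the fold threshold, at -0.46, -0.54 and -0.30. The cysteine cathepsins CTSB and CTSZ passed the test in none of the 3 comparisons.

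The glycosidases, other hydrolases and cofactors were split. Of the 9 tested, 4 were lower and 2 higher at an adjusted p under 0.05 in each of the 3 comparisons. The shares of all genes tested were 24.4% to 26.8% lower and 25.2% to 27.6% higher. GAA, which degrades glycogen, was at 89.01, 84.47 and 96.37 CPM with the control ASO and at 97.84 to 129.3 CPM with the targeting ASOs, with log2 fold changes of 0.32, 0.38 and 0.50. GLB1, the beta-galactosidase bound by CTSA, was also higher, by 0.35, 0.61 and 0.59. PSAP, the precursor of the saposin cofactors, was lower, at -0.47, -0.37 and -0.33. PPT1, which removes palmitate from proteins, was at 210.5, 235.3 and 204.3 CPM with the control ASO, and its log2 fold changes were -0.53 for SETD5-AS1, -0.56 for LINC00641 and -0.04 for LINC00662 (adjusted p = 0.6708). NPC2, a cholesterol carrier of the lumen, passed the test in none.

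Among the 7 membrane proteins, the tetraspanin CD63 (ENSG00000135404.7, hg19 chromosome 12, 56119107 to 56123491) was the one called by fold. It had 420.2, 412.3 and 367.2 CPM with the control ASO, 231.5, 221.0 and 184.4 CPM with the SETD5-AS1 ASO, 198.7 and 209.8 CPM for LINC00641 and 208.7, 211.8 and 234.3 CPM for LINC00662. The targeting ASOs did not overlap the control ASO, and the log2 fold changes were -0.90, -0.96 and -0.82 (SE 0.09, 0.08 and 0.07). LAMP2, an abundant membrane glycoprotein and receptor of chaperone-mediated autophagy, was lower by a smaller amount, at -0.31, -0.37 and -0.25. MCOLN1, the calcium channel TRPML1, had 49.91, 27.78 and 56.19 CPM with the control ASO and 27.09 to 34.68 CPM with the targeting ASOs. Its control ASO libraries were thus 2 high and 1 low, and its log2 fold changes were -0.43, -0.64 and -0.42. CLCN7, the chloride-proton exchanger of the lysosome, was higher by 0.30, 0.25 and 0.60.

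LAMP1, the other major membrane glycoprotein, was the single member that passed the test in both directions. It had 118.3, 110.1 and 119.7 CPM with the control ASO, 89.09, 90.67 and 91.86 CPM with the SETD5-AS1 ASO, 90.14 and 88.22 CPM for LINC00641 and 128.3, 149.5 and 196.5 CPM for LINC00662. The log2 fold changes were -0.35 (SE 0.08), -0.37 (SE 0.08) and 0.50 (SE 0.10, adjusted p = 0.0001183). The LINC00662 ASO libraries were the high ones and were spread more widely than those of any other ASO group.

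The autophagy members went separate ways. MAP1LC3B, which encodes the vesicle protein LC3B, had 86.69, 79.09 and 161.5 CPM with the control ASO, 57.80, 57.52 and 61.32 CPM with the SETD5-AS1 ASO, 73.50 and 75.07 CPM for LINC00641 and 64.69, 66.56 and 69.86 CPM for LINC00662. The third control ASO library was high, and the log2 fold changes of -0.88, -0.54 and -0.65 became -0.49, -0.16 and -0.26 without it, the LINC00641 value then failing the test (adjusted p = 0.174). WIPI1, a phosphoinositide-binding protein of early autophagy, was higher with each targeting ASO, as RRAGD was, at 6.490, 8.942 and 9.709 CPM with the control ASO and 10.47 to 14.37 CPM with the targeting ASOs (log2 fold changes of 0.51, 0.58 and 0.67). The gene lies wholly under a gene of the opposite strand. SQSTM1, the cargo receptor p62, was lower, at -0.43, -0.22 and -0.22, and UVRAG, a regulator of vesicle maturation, was higher by 0.48 and 0.39 with the LINC00641 and LINC00662 ASOs.

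Counted over the 3 comparisons at an adjusted p under 0.05, 12 members were lower in all: ATP6V0B, ATP6V0E1, ATP6V1B2, ATP6V1D, CD63, CTSA, CTSD, LAMP2, MAP1LC3B, MCOLN1, PSAP and SQSTM1. MAP1LC3B no longer passed with the LINC00641 ASO when control ASO replicate 3 was left out. Another 5 members were higher in all, namely ATP6V1A, CLCN7, GAA, GLB1 and WIPI1. LAMP1 passed both ways, 4 members passed in none (ATP6V1E1, CTSB, CTSZ and NPC2), and the remaining 16 passed in 1 or 2 comparisons in 1 direction. The share of all genes that passed in all 3 was not computed, and the 3 comparisons share the control ASO libraries. These counts therefore cannot be set against a background. Of the 11 members with CACGTG in the promoter window, 6 were lower and 2 higher with the SETD5-AS1 ASO, 8 and 2 for LINC00641, and 6 and 4 for LINC00662. Of the 17 other members with a window, the numbers were 8 and 2, 5 and 3, and 5 and 4. The median log2 fold change was -0.35, -0.40 and -0.30 with the core and -0.19, -0.14 and -0.04 without it. No such counts or medians were made for all genes with and without the core, and whether the core played a part was not tested.

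The control ASO libraries were then set against all other HEK293T RNA-seq libraries, with and without an ASO. In 9 of 38 members (23.7%, against 16% of all genes), all 3 control ASO libraries lay above all 14 other HEK293T RNA-seq libraries. These were ATP6V0B, ATP6V1B2, ATP6V1C1, ATP6V1H, CD63, CTSA, CTSD, GUSB and LAMP2. CTSA, for example, had 29.46 to 37.06 CPM in the RNA-seq control and CBX7 libraries, and ATP6V0B had 17.80 to 30.82 CPM. WIPI1 was the 1 member (2.63%, against 13% of all genes) with all control ASO libraries below the rest, as RRAGD was. This count was added after the data had been seen and depended on the scaling, since with library size alone 5 members lay above and 3 below. Without control ASO replicate 1 or 3, 2 members lay below, and without SETD5-AS1 ASO replicate 1, 3 did.

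Set against the RNA-seq control, 6 of 38 members were called higher with the control ASO (15.8%, against 16.2% of all genes): ATP6V0B, CTSA, PPT1, ATP6V0E1, ATP6V1C1 and MAP1LC3B, with log2 fold changes of 1.61, 1.38, 1.28, 1.08, 1.00 and 0.93. The RNA-seq control had 17.80, 19.97 and 19.51 CPM of ATP6V0B, 34.10, 31.92 and 37.06 CPM of CTSA, 43.67, 53.57 and 44.56 CPM of ATP6V1C1 and 56.48, 64.96 and 50.83 CPM of MAP1LC3B, all below the control ASO libraries. ATP6V1H (0.74), CTSD (0.61) and SQSTM1 (0.38) were higher by less than the fold threshold. None was called lower, where 16.3% of all genes were, and DESeq2 also gave 0, with 8 lower at an unadjusted edgeR p under 0.05. Without control ASO replicate 3 or RNA-seq control replicate 2, 2 members were called lower, and MAP1LC3B was at 0.54 without control ASO replicate 3. At an adjusted p alone, 20 were higher (52.6%, against 29.6% of all genes) and 7 lower (18.4%, against 29.6%), and the median was 0.28, where that of all genes was 0.01. For PPT1, every ASO library had at least 134.4 CPM, above the RNA-seq control libraries at 89.09, 100.6 and 79.53 CPM. The ASO groups were not level, since PPT1 was lower with the SETD5-AS1 and LINC00641 ASOs than with the control ASO at an adjusted p alone. GAA had 155.4, 132.2 and 157.5 CPM in the RNA-seq control and was lower with the control ASO, at -0.71 (SE 0.09). The 2 groups came from separate tables, so that ASO delivery, the experiment and the control oligonucleotide cannot be told apart in this comparison.

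**Figure D3:**
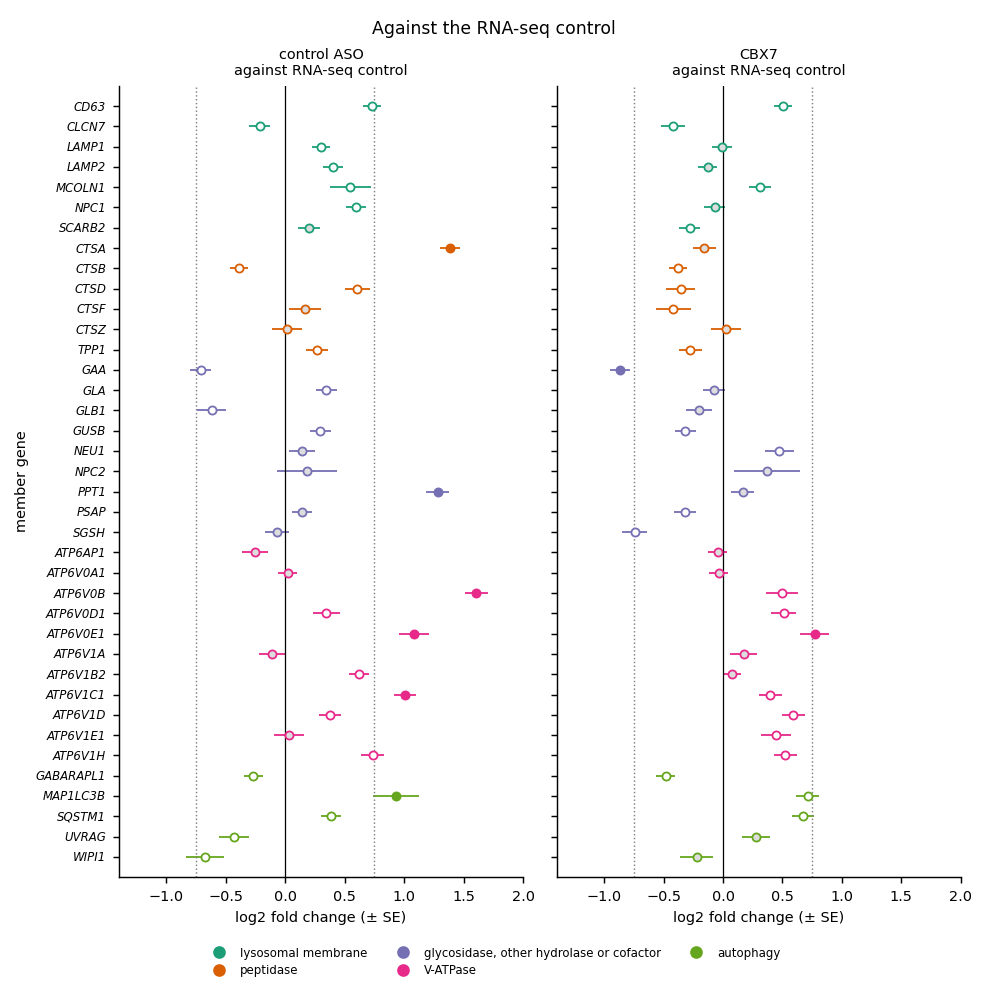
Log2 fold changes of 38 members against the RNA-seq control, for the control ASO and for CBX7, with bars of 1 SE, dotted lines at 0.75 on each side of 0 and the same colours and fills by role and call. Filled points for the control ASO are all on the higher side, from 0.93 to 1.61, and CBX7 has 1 filled point on each side, ATP6V0E1 and GAA.

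**Figure D4:**
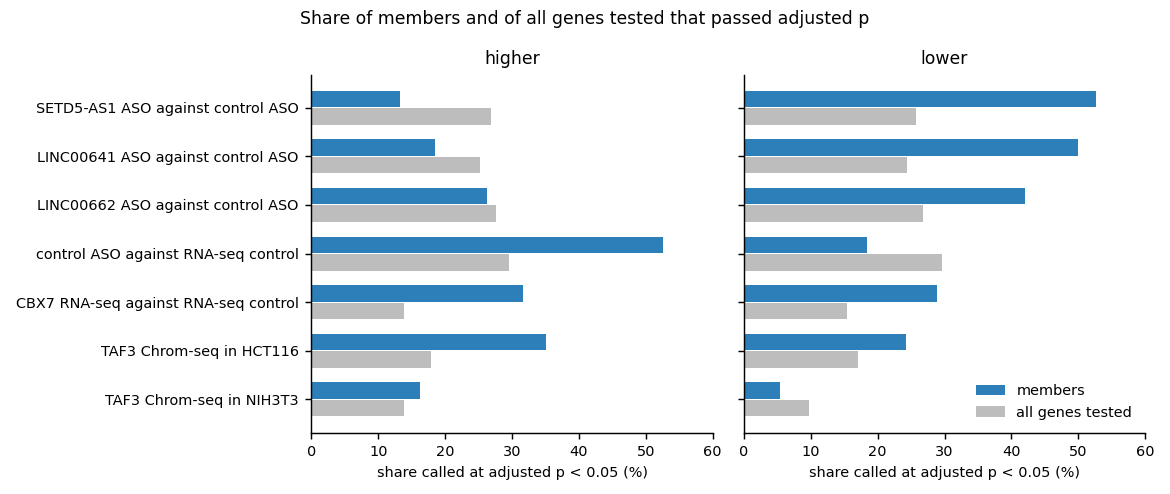
Share of members and of all genes tested, in percent, that passed an adjusted p of 0.05 whatever the fold, higher and lower, in 7 comparisons. With the SETD5-AS1 ASO the bars for lower stand at 52.6% of members and 25.8% of all genes.

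Comparisons between pairs of targeting ASOs do not involve the control ASO. Between SETD5-AS1 and LINC00641, 0 of 38 members were called higher or lower, where 1.04% and 0.682% of all genes were. DESeq2 also gave 0 and 0, and 6 and 4 passed an unadjusted p under 0.05. At an adjusted p alone, ATP6V1C1 was higher (background 2.76%) and GLA, GABARAPL1 and MAP1LC3B were lower (3.14%), but with LINC00641 left at 1 library by leaving out replicate 3 there were 0 and 0. Between SETD5-AS1 and LINC00662, in which NAGLU also entered, LAMP1 was the 1 of 39 members called lower (2.56%, against 2.5% of all genes) and none was higher (8.57%; 0 by DESeq2, 4 at an unadjusted p). At an adjusted p alone, 10 were lower (25.6%, against 15.4%) and 4 higher (10.3%, against 16.8%). Between LINC00641 and LINC00662, LAMP1 was again the 1 of 38 called lower (2.63%, against 2.25%) and none was higher (6.15%; 0 by DESeq2, 4 at an unadjusted p), and 11 were lower (28.9%, against 11.2%) and 2 higher (5.26%, against 13.3%) at an adjusted p alone. LAMP1 was at -0.79 and -0.81 in these pairs and at -0.60 and -0.63 without LINC00662 ASO replicate 3, which was no longer called. In the pair of LINC00641 and LINC00662, the 11 lower members became 6 without LINC00641 ASO replicate 2. With all libraries of the pair, 6 of 11 V-ATPase subunits were lower and 0 higher, with ATP6V1C1 at -0.72 (SE 0.08) and ATP6V1B2 at -0.55 (SE 0.07). In the same order of pairs, ATP6V1H was at 0.24, -0.13 and -0.37, CTSD at 0.09, -0.10 and -0.19, SQSTM1 at -0.21, -0.16 and 0.05, and MAP1LC3B at -0.33, -0.17 and 0.16, of which the last ATP6V1H value and the first MAP1LC3B value passed the adjusted p. RRAGD was at -0.12, -0.23 and -0.11, of which the second passed the test (adjusted p = 0.02786).

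Few members differed by fold between cells expressing the CBX7 reader and the RNA-seq control. If the control cells were untreated, as the methods describe, the reader cannot be told apart from transfection and any labelling in this comparison. Between CBX7 and the RNA-seq control, 1 of 38 members was called higher (2.63%, against 4.17% of all genes) and 1 lower (2.63%, against 3.48%). ATP6V0E1 had 27.48, 28.37 and 33.45 CPM with CBX7 and 17.22, 19.62 and 15.66 CPM in the control (log2 fold change of 0.77, SE 0.12), and without CBX7 replicate 3 or control replicate 3 it was no longer called, at 0.68 and 0.69. GAA had 85.29, 76.47 and 82.00 CPM with CBX7 and 155.4, 132.2 and 157.5 CPM in the control, with no overlap (log2 fold change of -0.87, SE 0.09, adjusted p = 5.733e-06). Counts this small moved with single libraries, to 2 higher and 2 lower without CBX7 replicate 2 and 3 higher and 2 lower without control replicate 2.

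With CBX7, 12 members were higher at an adjusted p alone (31.6%, against 13.8% of all genes) and 11 lower (28.9%, against 15.4%), and the roles divided. The 11 became 6 without CBX7 replicate 1, CBX7 replicate 3 or control replicate 1. Of the 11 V-ATPase members 7 were higher and 0 lower, by 0.40 (ATP6V1C1) to 0.77 (ATP6V0E1). The 10 V-ATPase genes tested outside the list did not share this, with 1 higher (10%) and 2 lower (20%). Of the 6 peptidases none was higher and 4 were lower, CTSF, CTSB, CTSD and TPP1, at -0.42 to -0.28. Of the 9 glycosidases, other hydrolases and cofactors, 1 was higher (NEU1, a sialidase, at 0.47) and 4 were lower, among them SGSH, a sulfamidase of heparan sulfate, at -0.74 (SE 0.10). MAP1LC3B and SQSTM1 were higher, by 0.71 and 0.67. RRAGD was at -0.25 (SE 0.09, adjusted p = 0.05219).

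Pathway genes outside the list of 40 were read the same way. Of 30 tested autophagy genes, 15, 15 and 12 were lower and 8, 9 and 10 higher at an adjusted p under 0.05 for the targets SETD5-AS1, LINC00641 and LINC00662. These were 50%, 50% and 40% lower, against 25.8%, 24.4% and 26.8% of all genes, and 26.7%, 30% and 33.3% higher, against 26.9%, 25.2% and 27.6%. BECN1, VPS11 and VPS18, which take part in the lipid kinase and tethering complexes of autophagy and endosome fusion, were called lower by fold in all 3 comparisons, where 11.5%, 11.5% and 13.3% of all genes were lower by fold in each one. Of 32 genes of the lysosomal lumen, 7, 7 and 9 were lower (21.9%, 21.9% and 28.1%) and 9, 9 and 12 higher (28.1%, 28.1% and 37.5%), so the lower shares of this list lay near those of all genes. LGMN, M6PR and SMPD1, named like the preceding genes after their values were seen, were called lower and DPP7 and PLBD2 higher in each. Of 12 tested genes of the lysosomal membrane, 4, 4 and 3 were lower and 2, 1 and 3 higher, with LAPTM4A called lower in each, and of 10 tested V-ATPase genes 2 were lower in each and 3, 0 and 2 higher. With CBX7, 11 of the 32 lumen genes were lower (34.4%, against 15.4% of all genes) and 1 was higher (3.12%, against 13.8%). Of the 10 V-ATPase genes, 2 were lower (20%) and 1 higher (10%), unlike the V-ATPase members. Of the 30 autophagy genes, 4 were lower (13.3%) and 7 higher (23.3%), and of the 12 membrane genes 1 was lower and 1 higher.

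Chrom-seq measured how much RNA of each member was recovered with the TAF3 reader relative to the reader-free control, which is not an expression level. In HCT116, 2 of 37 members were called higher (5.41%, against 3.34% of all genes) and 1 lower (2.7%, against 3.28%). ATP6V0D1, which links the pump's membrane ring to its stalk, had 26.90, 27.66 and 21.55 CPM with TAF3 and 14.52, 14.73 and 13.87 CPM in the control (log2 fold change of 0.82, SE 0.10, adjusted p = 1.934e-08). ATP6V1D, a subunit of the rotor, had 46.64, 45.17 and 45.13 CPM with TAF3 and 26.88, 26.11 and 26.22 CPM in the control (0.79, SE 0.08, adjusted p = 6.083e-11). Neither overlapped the control libraries. GABARAPL1, of the GABARAP family, was recovered less, with 31.92, 29.00 and 32.11 CPM against 51.98, 55.23 and 50.91 CPM (-0.77, SE 0.08, adjusted p = 7.593e-11), although without TAF3 replicate 2 or control replicate 2 its fold change of -0.72 or -0.73 missed the threshold.

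In HCT116, 13 members were higher at an adjusted p alone (35.1%, against 17.9% of all genes) and 9 lower (24.3%, against 17%). The V-ATPase members were on 1 side, with 8 of 11 higher and 0 lower, and the autophagy members on the other, with 4 of 5 lower and 0 higher. Genes outside the list were less divided. Of 10 other V-ATPase genes tested, 2 were higher (20%) and 1 lower (10%). Of 31 other autophagy genes tested, 4 were higher (12.9%) and 7 lower (22.6%). The split is therefore read for the members alone. RRAGD was also recovered less in HCT116, at -0.42 (SE 0.09).

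In NIH3T3, 0 of 37 members were called in either direction, where 10.7% of all genes were higher and 0.375% lower. DESeq2 also gave 0 and 0, and 7 were higher and 3 lower at an unadjusted edgeR p under 0.05. At an adjusted p alone 6 were higher (16.2%, against 13.8%) and 2 lower (5.41%, against 9.79%). Atp6v0d1 and Atp6v1d, the subunits called in HCT116, were among the 6, with 101.3, 88.97 and 80.20 CPM against 70.50, 75.40 and 66.42 CPM for Atp6v0d1 (0.35, SE 0.08) and 80.58, 85.02 and 77.56 CPM against 65.17, 68.69 and 69.01 CPM for Atp6v1d (0.26, SE 0.07). Gabarapl1 was again lower (-0.35, SE 0.08), as was Wipi1 (-0.29, SE 0.08), and these 2 became 1 without control replicate 1 and 4 without control replicate 2. The human and mouse values come from different lines and tables, and their difference was not tested.

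In Neuro-2a, 0 of 38 members were called, where 1.01% of all genes were higher and 0.0235% lower. DESeq2 gave 0 and 0, and 4 were higher and 2 lower at an unadjusted edgeR p. Without TAF3 replicate 1, the library that stood apart, 7 members were higher and 4 lower at an adjusted p alone and still 0 by fold. The calls over all genes also rose without it, to 7.67% higher and 8.64% lower at an adjusted p alone, and by fold from 172 higher and 4 lower to 565 and 55. With all libraries, no member passed the adjusted p alone, where 1.08% of all genes were higher and 0.165% lower. Atp6v0d1, which thus did not pass, had 129.4, 129.6 and 131.4 CPM with TAF3 and 110.6, 103.8 and 103.3 CPM in the control. The difference between the mouse lines, tested as Neuro-2a minus NIH3T3, was called for 0 of 38 members, where 0.718% of all genes were higher and 2.33% lower, and 3 and 1 members passed an unadjusted edgeR p under 0.05.

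**Figure D5:**
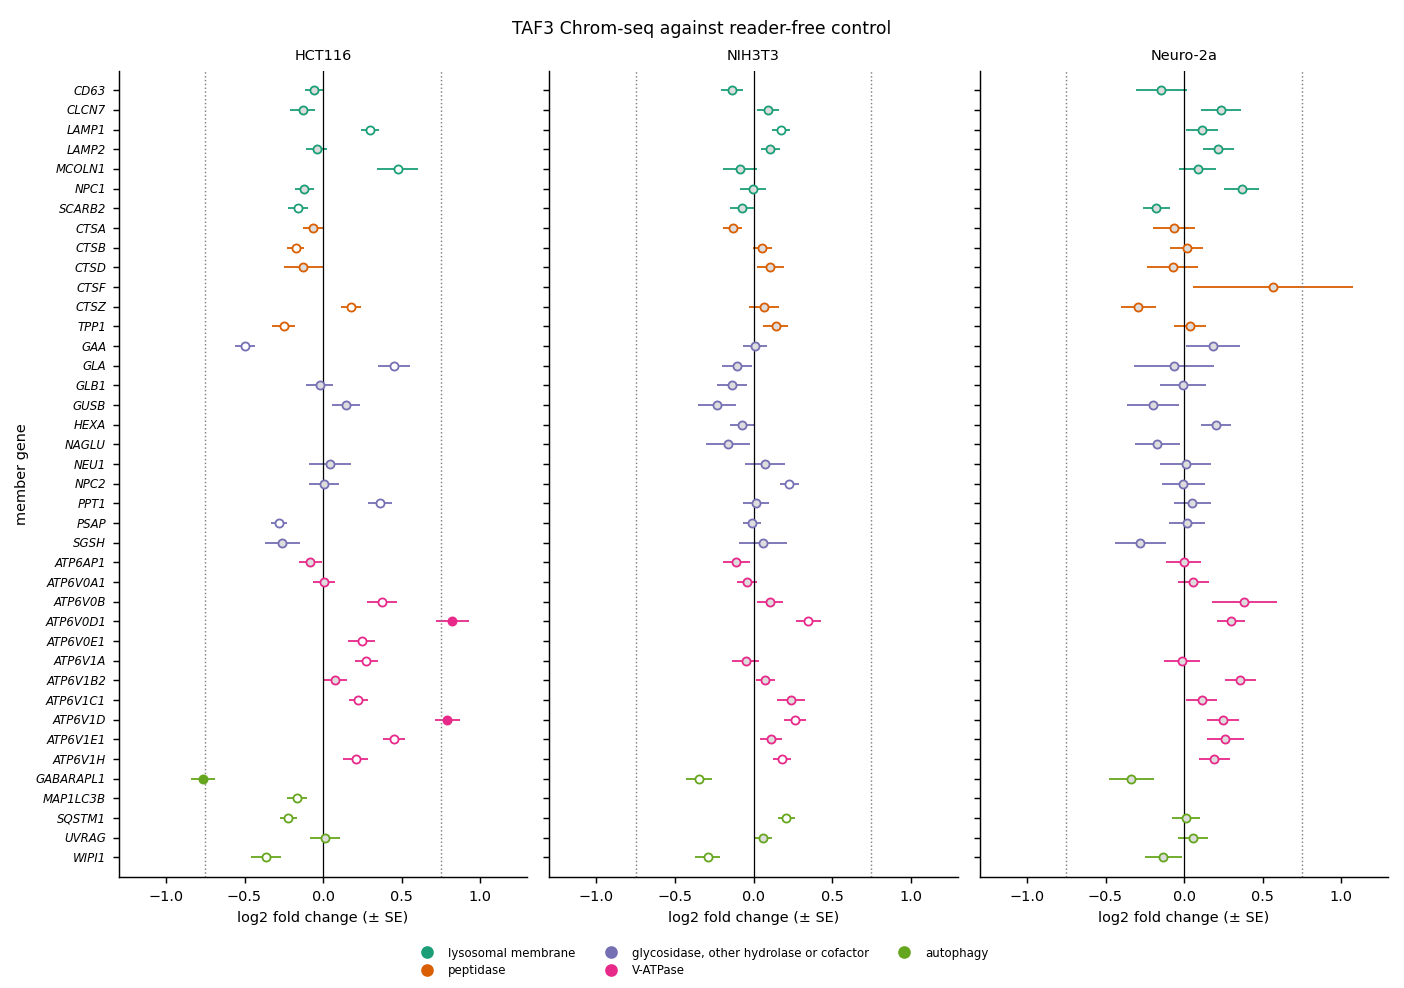
Log2 fold changes of the members between TAF3 Chrom-seq and the reader-free control in HCT116, NIH3T3 and Neuro-2a, with bars of 1 SE, dotted lines at 0.75 on each side of 0 and the same colours and fills by role and call. In HCT116 ATP6V0D1 (0.82) and ATP6V1D (0.79) are filled on the higher side and GABARAPL1 (-0.77) on the lower side, and neither mouse line has a filled point.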

How the data were processed

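The authors deposited raw counts of reads per gene, whole numbers with no normalization, in 1 table per experiment. Per the labels and the study's methods, poly(A) RNA was made into Smart-seq libraries, reads were trimmed with fastp 0.23.1, aligned with HISAT2 2.1.0 (human hg19, mouse mm10) and assigned to GENCODE genes by featureCounts 2.0.1. FastQC 0.11.8 and DESeq2 1.34.0 are also named in the submitters' processing notes. Gene lengths in the tables equal the whole gene span, so reads in introns may be counted, and reads in genes that overlap on 1 strand may be lost.

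Groups came from the sample titles. The counts of each comparison's 2 groups were tested with edgeR 4.0.16 (quasi-likelihood, TMM, R 4.3.3) for genes with a summed count above 3 per library, 18 over 6 libraries, with Benjamini-Hochberg adjustment over all genes tested. After the study's rule, calls needed an adjusted p under 0.05 plus a 1.68-fold difference, 0.75 on the log2 scale. SEs were fold changes divided by the root of F. CPM used TMM factors. Named genes were the called members, up to 6 per comparison with the largest changes, LAMP1, CTSD, SQSTM1, MAP1LC3B and ATP6V1H in each ASO comparison, RRAGD, RRAGC, FLCN, FNIP2, TFEB, TFE3, MITF and the targeted lncRNAs. Further members and pathway genes were picked with their values in view. The members and lists were chosen with earlier results of these data known. The procedure was tested on simulated data. The depth ranged from 8258859 to 17558305 counts, and PCR reads are not independent molecules.

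The alternatives were other scalings (DESeq2's factors or library size alone), filterByExpr or no filter, a replicate block, 1 fit of all 11 ASO libraries, the omission of each library in turn, and DESeq2 1.42.0. Another 12 listed libraries, the HEK293T Chrom-seq, were not used, and 6 columns belonged to no listed sample. Promoters came from RefSeq (GRCh38.p14) and ASO sequences from the study's supplementary tables.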

Additional observations from a re-analysis of the deposited data

Results flagged for a closer look

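LAMP1 differed between targeting ASOs by a test of the difference itself. Its log2 fold change against the control ASO was -0.35 for SETD5-AS1, -0.37 for LINC00641 and 0.50 for LINC00662. The direct difference was -0.786636 for SETD5-AS1 minus LINC00662 (edgeR adjusted p = 2.437e-05) and -0.813967 for LINC00641 minus LINC00662 (edgeR adjusted p = 4.327e-05), with the LINC00662 ASO libraries higher in both. Without LINC00662 ASO replicate 3, which had 196.5 CPM where the other 2 had 128.3 and 149.5 CPM, the differences were -0.60 and -0.63.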

How the results depend on the processing

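Of the counts of called members, 319 recomputed values stayed within 1.5 times of the reported count and 25 did not. Scaling by library size alone gave 2 members lower with the control ASO than in the RNA-seq control, 0 lower with the SETD5-AS1 than with the LINC00662 ASO, and 5 members above and 3 below in the comparison of the control ASO with the other 14 libraries. Without a filter, 1 member was higher with the LINC00662 ASO than with the control ASO and 2 were lower with the LINC00641 than with the LINC00662 ASO. The same replicate numbers did not pair the samples, since correlations of same-numbered deviations lay between -0.0418 and 0.0952. The fit with the replicate block also gave 2 lower for LINC00641 against LINC00662 and changed no other count of called members by over 1.5 times. Leaving out 1 library gave 0 to 1 higher for LINC00662 against the control ASO, 0 to 2 lower for the control ASO against the RNA-seq control, 0 to 3 higher and 1 to 2 lower for CBX7, 0 to 1 lower for SETD5-AS1 against LINC00662, 0 to 2 lower for LINC00641 against LINC00662, 0 to 1 lower in HCT116 and 1 to 3 members below in the 14-library comparison. Of the values of named members, 502 kept direction and call, 10 lost and 3 gained the call, and 2 reversed. CTSD, not called between ASOs, ranged from -0.12 to 0.34 for SETD5-AS1 against LINC00641 and from -0.42 to 0.019 for LINC00641 against LINC00662 when 1 library was left out. The cause was not tested. The share of higher calls among all genes was 52.8% for SETD5-AS1 against the control ASO and 66.5% with library size alone, and 60.4% and 71.8% for SETD5-AS1 against LINC00641. Planned comparisons of HEK293T Chrom-seq and of HCT116 with HEK293T were not run.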
